A study of Saccharomyces cerevisiae with 12 samples.

Results

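The strain comparison without ATP covered 6 of the 12 RNA sequencing libraries of the series, 3 of an NTT1 strain of budding yeast (Saccharomyces cerevisiae) and 3 of a wild-type control, chosen by their labels alone. The labels give the NTT1 strain as BY29034 background with a QUEEN reporter and an integrated construct named PH-NTT1, and do not expand PH. They give the wild-type (WT) cultures as empty-vector controls and name no reporter for them. Each untreated WT library carries a source name of its own (BY29034, BY29035 and BY29036), whereas all NTT1 libraries share 1. Cultures of both groups reached mid-log phase in complete synthetic medium at 30 °C and received no ATP. The other 6 libraries are of NTT1 and WT cultures after 1 h with 5 mM extracellular ATP. They enter here as a second, separate strain comparison and in the estimate of spread. Each treated WT library also carries a source name of its own. Whether the WT source names are separate strains or a numbering is not stated. The construct, the reporter, the vector and any other difference between the strains cannot be told apart in this design, and the level of the NTT1 transcript was not analysed here.

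NTT1 belongs to the nucleotide transporters of Encephalitozoon cuniculi, an intracellular microsporidian parasite that takes up nucleotides from its host. QUEEN is a fluorescent protein sensor of ATP. Yeast makes ATP in the cytosol by glycolysis and in mitochondria by the ATP synthase, exchanges it across the inner mitochondrial membrane with ADP/ATP carriers, and builds adenine nucleotides through the ADE pathway, whose genes respond to the adenine nucleotide state of the cell through the factors Bas1 and Pho2.

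Levels are given as CPM, the counts of a gene as a share of its library scaled to a fixed total, after TMM normalisation, and differences as log2 fold changes of NTT1 over WT from 1 quasi-likelihood fit (edgeR) of all 12 libraries, with p-values adjusted by Benjamini-Hochberg over 6157 genes. A gene is called at an adjusted p under 0.05. Since CPM are shares, a change in total RNA per cell cannot be seen in them. The untreated libraries held 17177891 to 18291713 counts, so their depth was nearly even. Across genes, log2 CPM correlated at a Pearson's r of 0.992 to 0.995 between the NTT1 replicates and 0.977 to 0.989 between the WT replicates. The SD of a library's log2 CPM around its group mean was 0.181, 0.256 and 0.272 in WT and 0.154, 0.148 and 0.18 in NTT1. It was lower, 0.121 to 0.154, in the treated libraries than in untreated WT, and all share 1 estimate of spread per gene. On the first principal component of the 6 libraries, which carried 47.6% of the variance, NTT1 lay at 5.7, 10.55 and -3.2, and WT replicates 1, 2 and 3 lay at -4.75, -22.99 and 14.68. The NTT1 libraries lay between WT replicates 2 and 3, so the spread within WT was wider than the distance between the strains on this axis. WT replicates 2 and 3 lay on opposite sides of WT replicate 1, at similar distances from it. Leaving out WT replicate 3 moved the number of calls most, and values without it are given beside several results.

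Without ATP, 3 of 6157 genes (0.0487%) were called, 2 higher (0.0325%) and 1 lower (0.0162%) in NTT1. At an unadjusted p under 0.05 there were 597 genes (9.7%), 196 higher (3.18%) and 401 lower (6.51%), and with upper-quartile factors this split was 334 higher and 308 lower. The CPM ranges of the 3 NTT1 and 3 WT libraries did not overlap in 579 genes (9.4%), 263 with NTT1 above (4.27%) and 316 with NTT1 below (5.13%). The median difference over all genes was 0.0011 on the log2 scale and 50.3% of genes had a difference above 0. A fit of the 6 untreated libraries alone called 0 genes, with 323 at an unadjusted p under 0.05, and DESeq2 called 41. Leaving out WT replicate 3 gave 602 calls of 6181 genes (9.74%), 285 higher (4.61%) and 317 lower (5.13%), whereas each of the other 5 libraries left out in turn gave 2 to 4.

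**Figure D1:**
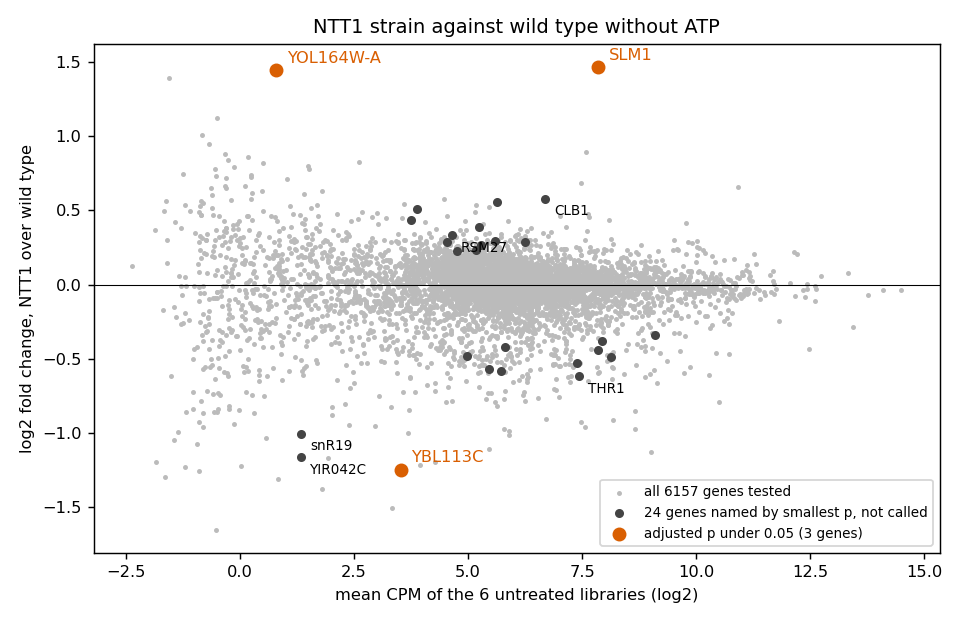
Each point is 1 of 6157 genes, with mean CPM of the 6 untreated libraries (log2 axis) across and the log2 fold change of NTT1 over WT without ATP up. The 3 called genes, SLM1 and YOL164W-A above and YBL113C below, stand away from the dense band around 0, and the 24 dark points are the genes named by smallest p with ranges that do not overlap.

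SLM1 (YIL105C), which encodes a phosphoinositide-binding protein with a pleckstrin homology (PH) domain that acts with TORC2 at the plasma membrane, rose in the NTT1 strain. It stood at 369, 331 and 321 CPM in NTT1 replicates 1 to 3, against 137, 132 and 99.5 CPM in WT. The lowest NTT1 library was above the highest WT library by more than the whole range of either strain. The difference was 1.47 on the log2 scale (SE 0.11, adjusted p 0.000298), it was called in all 6 fits that left out 1 untreated library, and with only the untreated libraries fitted its adjusted p was 0.108. In R64 coordinates the gene lies at chrIX:167581-169641 on the minus strand, and all 2012 stretches of 50 bases in it occur once in that reference genome. The reference does not hold the integrated construct, whose sequence was not available here. Reads from any stretch that the construct shared with SLM1 would be counted as SLM1, and whether it shares one was not tested. An open reading frame on the other strand, YIL105W-A, overlaps it by 141 bases and had 0 counts in every library. Counts were summed over the gene, so where within SLM1 the reads fell was not analysed here.

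The paralog SLM2 (YNL047C), which shares the role in TORC2 signalling, had 36.4, 30.2 and 36.7 CPM in NTT1, against 35.6, 34.0 and 36.2 CPM in WT. Its ranges overlapped and its difference was -0.03 (SE 0.08, unadjusted p 0.673). The genes beside SLM1 were not called either. MOB1 and PFK26 on one side had differences of -0.10 and -0.23, and SHQ1 and DPH1 on the other had 0.19 and 0.22, all with an adjusted p of 0.499 or more.

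YBL113C, an open reading frame at the left end of chromosome II that resembles the helicase genes of the subtelomeric Y' elements, was the 1 gene that fell. It stood at 6.50, 6.04 and 7.91 CPM in NTT1, against 15.03, 17.1 and 16.5 CPM in WT. Every NTT1 library was below every WT library, and the spread within each strain was small beside the gap. The difference was -1.25 (SE 0.14, adjusted p 0.00509), called in all 6 fits that left out 1 library, with an adjusted p of 0.169 in the untreated libraries alone. The gene lies at chrII:280-2658 on the minus strand. Only 18.5% of its 2330 stretches of 50 bases occur once in the genome, so the count depends on how reads with several matches were assigned, which is not given in the sources used here.

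YOL164W-A, a short open reading frame of unknown function near the left end of chromosome XV, rose at a low level. It had 2.19, 2.56 and 2.89 CPM in NTT1, against 0.911, 1.04 and 0.836 CPM in WT. The groups did not overlap. The difference was 1.45 (SE 0.17, adjusted p 0.00719), and the untreated libraries held 31.3 counts on average, with an adjusted p of 0.0502 without WT replicate 1, 0.342 in the untreated libraries alone and 0.0529 with the replicate number as a block. Unlike YBL113C, all of its 134 stretches of 50 bases are unique. Its reading frame of 183 bases at chrXV:4130-4312 on the plus strand is shown because it is the smallest called gene, with the start and stop codons in capitals:
YOL164W-A: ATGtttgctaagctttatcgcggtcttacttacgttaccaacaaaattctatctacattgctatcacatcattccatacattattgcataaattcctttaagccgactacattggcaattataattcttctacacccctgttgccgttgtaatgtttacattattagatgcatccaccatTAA

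**Figure D2:**
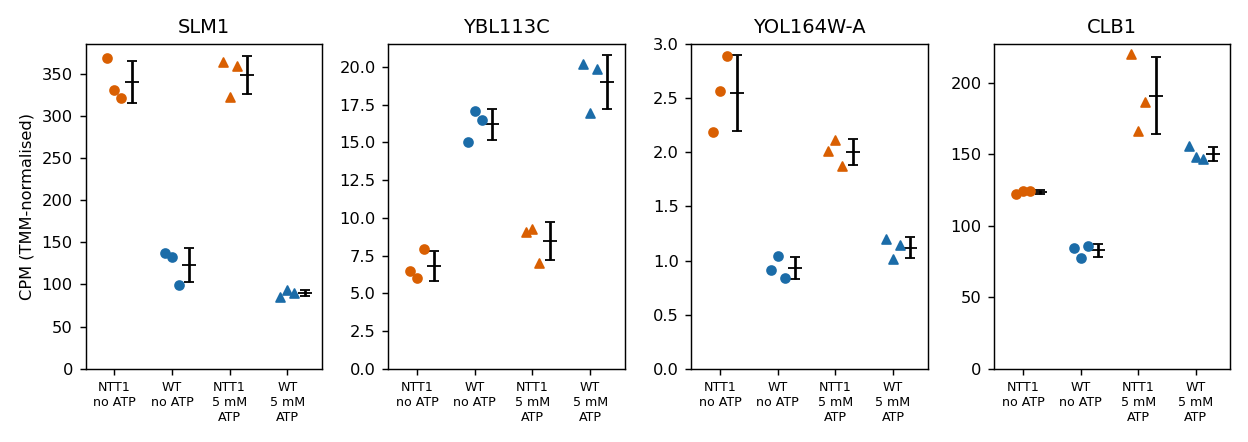
CPM (TMM-normalised, linear axes from 0) of the 3 called genes and CLB1 in each library, with the mean and SD of 3 replicates beside the points, for NTT1 and WT without ATP (circles) and with 5 mM ATP (triangles). NTT1 lay above WT for SLM1 and YOL164W-A and below WT for YBL113C in both conditions, with no overlap.

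The gene next in order of p was CLB1 (YGR108W), a B-type cyclin of the G2/M transition. It had 122, 125 and 124 CPM in NTT1, against 84.4, 77.7 and 86.1 CPM in WT, a difference of 0.58 (SE 0.09, adjusted p 0.0735). The ranges did not overlap, and the gene passed the threshold with upper-quartile factors (adjusted p 0.0473). Its paralog CLB2 had a difference of 0.09 (unadjusted p 0.364).

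SLM1 was read together with 26 other genes of TORC2 signalling and the eisosome, the membrane furrow from which Slm proteins are recruited. Of the 27, 8 had a difference above 0 and 19 below, with a median of -0.06. SLM1 was the 1 gene called. TOR2, the kinase of TORC2, had 30.2, 28.5 and 34.0 CPM in NTT1, against 34.8, 42.2 and 38.4 CPM in WT, without overlap and with a difference of -0.32 (SE 0.09, unadjusted p 0.00583). The kinase Ypk1, its main target, had a difference of -0.02 for YPK1 (unadjusted p 0.815), and the eisosome cores PIL1 and LSP1 had -0.05 and -0.06. KOG1, the partner of Tor kinases in the other complex, TORC1, was among the 12 lower genes named by p, at 53.4, 44.5 and 46.2 CPM in NTT1 and 58.5, 67.9 and 66.2 CPM in WT, a difference of -0.42 (SE 0.08, adjusted p 0.134). TOR1 had 41.8, 38.4 and 41.3 CPM in NTT1 and 52.9, 54.2 and 46.6 CPM in WT, a difference of -0.34 (adjusted p 0.26). TOR2, KOG1 and TOR1 are genes over 3000 bases. Of the 525 tested genes of that length, 83 (15.8%) were lower at an unadjusted p under 0.05 and 1 was higher. Over all genes, 6.51% were lower at that p. The part of length in these differences was not tested.

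The Y' element list, 35 near-identical or related open reading frames at chromosome ends, had 30 tested members. Of these, 27 had a difference below 0 and 3 above, with a median of -0.25, and 8 had an unadjusted p under 0.05, all lower, against 6.51% of all genes. The median was -0.49 without NTT1 replicate 3 and -0.20 without WT replicate 2. Besides YBL113C, YHL050C had 31.9, 27.1 and 29.3 CPM in NTT1, against 35.1, 35.9 and 36.7 CPM in WT, a difference of -0.29 (SE 0.08, unadjusted p 0.00578). YBL112C, which overlaps YBL113C by 77 bases, had 0.0546, 0.57 and 0.382 CPM in NTT1, against 1.25, 0.875 and 1.06 CPM in WT, on a mean of 12.5 counts. Most members hold few or no unique stretches, so they are not independent measurements. With ATP the same list had 15 members above 0 and 15 below. Within 20000 bases of a chromosome end, 201 genes had a median of -0.05, with 4 higher and 28 lower at an unadjusted p under 0.05, against 3.18% and 6.51% of all genes. Whole chromosomes lay between -0.02 and 0.01 in median, so no chromosome stood apart in level.

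Beyond the called genes, the 12 higher and 12 lower genes with the smallest p among those with non-overlapping ranges had adjusted p-values of 0.0735 to 0.274 and differences of 0.23 to 1.16 in size. None of the 24 was called. DESeq2 called 19 of them, against 41 of all 6157 genes. Without WT replicate 3, 23 were called, with ASP3-4 the exception, against 9.74% of all genes. The 12 higher genes included CLB1 and the following. RSM27, a mitochondrial ribosomal protein, had 28.6, 28.4 and 26.7 CPM in NTT1, against 22.4, 22.04 and 22.2 CPM in WT (0.33, SE 0.06, adjusted p 0.126). MRPS16, another, had 51.6, 55.5 and 52.2 CPM in NTT1, against 45.02, 40.3 and 44.8 CPM in WT (0.29). RRG9, needed to keep the mitochondrial genome, had 28.7, 28.4 and 30.7 CPM in NTT1, against 24.4, 24.8 and 25.8 CPM in WT (0.23). That ranges do not overlap in the 24 genes follows from how they were chosen. The other fits use the same counts that chose the 24, so their calls are not separate support.

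The other higher genes were EGO2, a subunit of the vacuolar complex that anchors the Gtr activators of TORC1 (0.51), TAD2, a tRNA adenosine deaminase subunit (0.44), FOL3, which makes dihydrofolate (0.27), MCO12 (0.29), LCL2 (0.23), YLR294C (0.39) and the asparaginase copies ASP3-3 (0.56) and ASP3-4 (0.29). ASP3-3 and ASP3-4 hold no unique stretch of 50 bases, so their difference cannot be assigned to 1 copy. YLR294C is numbered next to ATP14, a subunit of the ATP synthase, and was not matched to the annotation.

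The 12 lower genes included KOG1 and the following. THR1, homoserine kinase of the threonine pathway, had 155, 118 and 133 CPM in NTT1, against 198, 225 and 201 CPM in WT (-0.62, SE 0.12, adjusted p 0.134). ARO1, the multifunctional enzyme of the shikimate pathway, had 243, 223 and 236 CPM in NTT1, against 269.5, 362 and 352 CPM in WT (-0.49). BAP2, a branched-chain amino acid permease, had 513, 482 and 463 CPM in NTT1, against 645, 600.0 and 598 CPM in WT (-0.34). For ARO1, WT replicate 1 lay nearer to the NTT1 libraries than the other WT libraries did.

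INP53, a phosphoinositide phosphatase, had 38.1, 33.4 and 34.5 CPM in NTT1, against 45.3, 56.9 and 55.3 CPM in WT (-0.57, SE 0.10, adjusted p 0.133). LGE1, a cofactor of histone H2B ubiquitination, had 28.4, 25.0 and 25.1 CPM in NTT1, against 36.2, 38.0 and 35.5 CPM in WT (-0.48). ADH5, an alcohol dehydrogenase, had 134, 141 and 136 CPM in NTT1, against 219.7, 187 and 186 CPM in WT (-0.53). For INP53, too, WT replicate 1 was the lowest WT library. The others were BOI2, a protein of polarised growth (-0.58), the cell wall protein HPF1 (-0.38), CSS1 (-0.44), the subtelomeric YIR042C (-1.16) and snR19, the U1 spliceosomal RNA (-1.01). snR19 had 1.31, 1.71 and 2.02 CPM in NTT1, against 3.07, 3.72 and 3.34 CPM in WT.

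Gene length moved with these differences. Over the 5782 tested genes with an annotated length, Spearman's rho between length and difference was -0.319, and -0.2 without WT replicate 3, a description across genes that share the same libraries. The 755 genes of up to 500 bases had a median difference of 0.07, with 70 higher and 23 lower at an unadjusted p under 0.05. The 525 genes over 3000 bases had a median of -0.08, with 1 higher and 83 lower. Over all genes, 3.18% were higher and 6.51% lower at that p. By library, the long genes lay at -0.02, -0.08 and -0.03 in NTT1, against -0.03, 0.11 and 0.06 in WT, as median log2 CPM centred on the 6 libraries. WT replicates 2 and 3 were high and WT replicate 1 lay within the NTT1 range. The named higher genes had a median length of 645 bases and the named lower ones 2904 bases, 11 of 12 with a length in each set. With ATP the rho was 0.163, of the other sign. With an offset for length, chosen after seeing the data, the same number of genes was called, 2 higher and 1 lower, and the medians of the lists of short mitochondrial genes under this offset are given with them. Small medians moved too, with 0.01 for carriers, -0.05 for cytosolic ribosomal proteins, -0.01 for nutrient signalling and -0.04 for chaperones under the offset. The part of length in the other results was not tested further.

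Genes that move nucleotides and phosphate across the mitochondrial or peroxisomal membrane were read first among the lists, since the strain carries a nucleotide transporter. Of 13 tested, 8 were above 0 and 5 below, the median was 0.02 and none had an unadjusted p under 0.05. PET9, the major ADP/ATP carrier, had 1078, 938 and 789.6 CPM in NTT1, against 977, 656 and 796 CPM in WT (0.21, SE 0.16, unadjusted p 0.209). The ranges overlapped, and no difference was detected at this spread. The minor carriers AAC1 and AAC3 had -0.10 and -0.08, the phosphate carrier MIR1 0.16, the GTP/GDP carrier GGC1 -0.27 (unadjusted p 0.0677) and the peroxisomal adenine nucleotide carrier ANT1 0.01. YEA6, a mitochondrial NAD carrier, was the 1 member without overlap, at 73.7, 74.6 and 73.1 CPM in NTT1 and 67.6, 68.5 and 71.1 CPM in WT (0.10).

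All 10 genes of de novo purine synthesis had a difference below 0, with a median of -0.21 and a range of -0.27 to -0.01. None was called. At an unadjusted p under 0.05 there were 6 lower, against 6.51% of all genes, and 6 had ranges that did not overlap, against 5.13%. ADE1, which makes SAICAR, had 729, 805 and 722 CPM in NTT1, against 885, 883 and 872 CPM in WT (-0.23, SE 0.08, unadjusted p 0.0177). ADE13, adenylosuccinate lyase, had 908, 970.3 and 933 CPM in NTT1, against 1068, 1167 and 1122 CPM in WT (-0.26, SE 0.08, unadjusted p 0.00942). ADE12, which commits IMP to AMP, had 486, 482 and 469.6 CPM in NTT1, against 526, 551 and 557 CPM in WT (-0.18). In these 3 genes the highest NTT1 library stayed below the lowest WT library.

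ADE17, the AICAR transformylase that closes the ring, had 1431, 1589 and 1488 CPM in NTT1, against 1770.5, 1878 and 1634 CPM in WT (-0.23). ADE8 had -0.19 and ADE5,7 -0.27, both without overlap. ADE6 (-0.18) and ADE4 (-0.23), the first committed step, had overlapping ranges, as did ADE2 (-0.06) and ADE16 (-0.01), the paralog of ADE17. The list median stayed between -0.23 and -0.17 when each untreated library was left out, and the mean centred level was -0.08, -0.06 and -0.14 in NTT1 and 0.08, 0.09 and 0.11 in WT. The NTT1 libraries lay below the WT libraries, WT replicate 3 included. With ATP, 5 of the 10 were above 0 and 5 below, with a median of 0.01.

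The purine genes share a sequence with amino acid genes that the lists did not use. TGACTC, on either strand, is the core bound by Gcn4, the activator of amino acid synthesis, and by Bas1. It was found in the promoters of 7 of the 10 purine genes (70%), against 8.19% of 5775 tested protein-coding genes, in windows of 250 bases before to 50 bases after the annotated start. It was found in 7 of 12 one-carbon genes (58.3%), 6 of 12 PRPP and histidine genes (50%) and 4 of 9 lysine genes (44.4%). A match is a description of the letters and not evidence of binding. The promoters of 2 purine genes, of HIS4 and of THR1 are shown for comparison, read from RefSeq's R64 assembly in the direction of the gene, with TGACTC or its complement GAGTCA in capitals:
ADE1 (YAR015W, chrI:169125-169424, + strand): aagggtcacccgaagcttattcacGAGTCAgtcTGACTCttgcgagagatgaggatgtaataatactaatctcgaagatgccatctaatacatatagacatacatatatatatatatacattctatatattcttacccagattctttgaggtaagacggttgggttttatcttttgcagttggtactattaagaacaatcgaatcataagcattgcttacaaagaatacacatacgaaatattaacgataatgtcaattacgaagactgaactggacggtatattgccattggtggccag
ADE17 (YMR120C, chrXIII:509231-509530, - strand): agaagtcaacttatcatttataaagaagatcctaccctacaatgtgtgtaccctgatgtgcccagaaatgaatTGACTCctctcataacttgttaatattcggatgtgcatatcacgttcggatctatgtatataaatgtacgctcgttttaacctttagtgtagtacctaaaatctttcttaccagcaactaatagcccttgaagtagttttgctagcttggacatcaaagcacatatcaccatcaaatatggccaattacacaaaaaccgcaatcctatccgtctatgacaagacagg
HIS4 (YCL030C, chrIII:68284-68583, - strand): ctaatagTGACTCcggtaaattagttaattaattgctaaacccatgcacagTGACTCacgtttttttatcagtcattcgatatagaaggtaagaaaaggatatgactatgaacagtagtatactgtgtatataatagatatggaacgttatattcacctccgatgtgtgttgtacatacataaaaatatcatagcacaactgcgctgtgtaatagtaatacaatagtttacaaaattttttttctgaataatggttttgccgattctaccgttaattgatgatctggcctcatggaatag
THR1 (YHR025W, chrVIII:159188-159487, + strand): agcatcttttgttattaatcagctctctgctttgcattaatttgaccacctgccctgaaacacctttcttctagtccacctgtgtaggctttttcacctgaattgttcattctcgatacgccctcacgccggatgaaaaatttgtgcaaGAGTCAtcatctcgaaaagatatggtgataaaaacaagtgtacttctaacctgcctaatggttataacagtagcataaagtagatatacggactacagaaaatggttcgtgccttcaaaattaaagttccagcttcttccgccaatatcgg

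One-carbon metabolism supplies formyl groups to the purine ring. Of its 12 genes, 9 were below 0 and 3 above, with a median of -0.15 and 4 lower at an unadjusted p under 0.05, against 6.51% of all genes. GCV2, of the glycine cleavage complex, had 275, 279 and 271 CPM in NTT1, against 353, 369 and 293 CPM in WT (-0.30, SE 0.09, unadjusted p 0.00574). ADE3, the trifunctional folate enzyme, had 413, 265 and 428 CPM in NTT1, against 445, 709.8 and 548 CPM in WT (-0.62, SE 0.20, unadjusted p 0.00929). MTD1 had -0.29 and the cytosolic serine hydroxymethyltransferase SHM2 -0.19. All 4 had ranges that did not overlap, against 5.13% of all genes lower without overlap. The guanine branch (5 genes) had a median of -0.11, which changed sign without WT replicate 3, and purine salvage (18 genes) a median of 0.01 with 10 above and 8 below, which also changed sign under other settings, the length offset among them.

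The synthesis of PRPP and histidine, which draws on the same precursor, had 10 of 12 genes below 0 and a median of -0.10. The median was -0.03 without WT replicate 3 and -0.04 with limma and library weights. Those weights were 4.32, 0.244 and 0.144 for WT replicates 1 to 3, so medians under them rest mostly on WT replicate 1 for WT. HIS4, a multifunctional histidine enzyme, had 735, 620.1 and 673 CPM in NTT1, against 939, 1152 and 979 CPM in WT (-0.60, SE 0.13, adjusted p 0.24). HIS3 had -0.34 and HIS5 -0.31, and the 5 PRS genes lay between -0.04 and 0.03. Of the 9 lysine genes, all were below 0, with a median of -0.25, 7 lower at an unadjusted p under 0.05, against 6.51% of all genes, and 6 without overlap, against 5.13%. LYS20, homocitrate synthase, had 350.3, 357 and 369.9 CPM in NTT1, against 424, 431 and 563 CPM in WT (-0.40, SE 0.11, unadjusted p 0.004). LYS2, the aminoadipate reductase, had 179, 173 and 179.6 CPM in NTT1, against 198, 259 and 261 CPM in WT (-0.43). The lysine median was -0.14 without WT replicate 3, -0.12 with limma and library weights and -0.29 without WT replicate 1.

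All 15 genes of the mitochondrial ATP synthase had a difference above 0, with a median of 0.25 and a range of 0.17 to 0.41, and none was called. At an unadjusted p under 0.05 there were 6 higher, against 3.18% of all genes. Ranges did not overlap in 2, both higher, against 4.27% of all genes. ATP14 had 92.9, 105 and 83.5 CPM in NTT1, against 80.0, 60.7 and 75.6 CPM in WT (0.38, SE 0.11, unadjusted p 0.00606). ATP4, a stator subunit, had 329.8, 317 and 303 CPM in NTT1, against 291, 243 and 252 CPM in WT (0.27, SE 0.10, unadjusted p 0.0162). These are the 2 genes without overlap. The mean level of the list, centred on the 6 libraries, was 0.23, 0.22 and -0.01 in NTT1, against 0.09, -0.37 and -0.15 in WT. NTT1 replicate 3 lay below WT replicate 1, and WT replicate 2 was lowest, so the groups overlapped. The median was 0.38 without WT replicate 1, 0.19 without WT replicate 2, 0.24 with the length offset and 0.10 with limma and library weights.

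Of 27 nuclear-encoded respiratory chain genes, 21 were above 0 and 6 below, with a median of 0.24. At an unadjusted p under 0.05, 5 were higher, against 3.18% of all genes. Ranges did not overlap in 2, both higher, against 4.27% of all genes. QCR10 of complex III had 69.0, 74.5 and 59.8 CPM in NTT1, against 59.6, 47.2 and 44.2 CPM in WT (0.43, SE 0.13, unadjusted p 0.00853). QCR6 had 0.36 and the cytochrome oxidase subunits COX4 and COX5A 0.39 and 0.35, while the hypoxic cytochrome c gene CYC7 had -0.66 (unadjusted p 0.079) and the external NADH dehydrogenase NDE1 -0.14. Centred levels were 0.16, 0.11 and -0.01 in NTT1, against 0.18, -0.14 and -0.31 in WT, so WT replicate 1 lay above every NTT1 library. The median was 0.16 with the length offset, 0.16 without WT replicate 3 and 0.01 with limma and library weights. These genes are short, with a median length of 462 bases, against 1224 for all tested genes, and those of the ATP synthase have 375.

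The proteins of the mitochondrial ribosome had 56 of 64 genes above 0, with a median of 0.11. At an unadjusted p under 0.05, 19 were higher and 0 lower, against 3.18% of all genes higher. Ranges did not overlap in 24, all higher, against 4.27% of all genes. Beside RSM27 and MRPS16, MRPL32 had 25.1, 25.7 and 25.6 CPM in NTT1, against 22.03, 21.2 and 22.1 CPM in WT (0.23, SE 0.06, unadjusted p 0.00498). Centred levels were 0.07, 0.05 and 0.04 in NTT1, against 0.02, -0.06 and -0.12 in WT, without overlap. The median was 0.07 with the length offset and 0.07 with limma and library weights, and the median length is 715.5 bases. The tricarboxylic acid cycle (14 genes, 9 above and 5 below) had a median of 0.05, which changed sign without WT replicate 3. Genes of the mitochondrial genome had 0 to 2 counts per library and were not tested.

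CCAAT, the site of the Hap complex that activates respiratory genes, was found in 14 of the 15 ATP synthase promoters (93.3%) and 21 of 27 respiratory chain promoters (77.8%), against 43.7% of all. TGACTC was found in 0 of the 15. ATP4 is shown as an example, with CCAAT or its complement ATTGG in capitals. CCCCT, the stress element bound by Msn2 and Msn4, was found in 9 of 17 trehalose and glycogen promoters (52.9%) and 20 of 29 general stress promoters (69%), against 21.8% of all. It was also found in 14 of 27 respiratory chain promoters (51.9%) and 6 of 15 ATP synthase promoters (40%). TSL1 is shown with CCCCT or AGGGG in capitals. None of the 3 motifs contains another.
ATP4 (YPL078C, chrXVI:408695-408994, - strand): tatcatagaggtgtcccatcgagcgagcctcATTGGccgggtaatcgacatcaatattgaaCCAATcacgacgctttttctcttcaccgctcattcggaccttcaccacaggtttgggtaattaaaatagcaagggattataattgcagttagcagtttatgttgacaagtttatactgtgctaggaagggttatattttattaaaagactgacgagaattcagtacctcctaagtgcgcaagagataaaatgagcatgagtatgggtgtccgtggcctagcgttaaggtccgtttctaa
TSL1 (YML100W, chrXIII:70374-70673, + strand): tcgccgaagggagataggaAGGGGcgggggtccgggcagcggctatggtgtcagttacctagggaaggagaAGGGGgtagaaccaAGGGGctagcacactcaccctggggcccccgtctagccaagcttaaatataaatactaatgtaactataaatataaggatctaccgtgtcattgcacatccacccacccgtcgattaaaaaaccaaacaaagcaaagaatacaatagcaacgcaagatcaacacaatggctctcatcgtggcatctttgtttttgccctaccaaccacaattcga

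**Figure D3:**
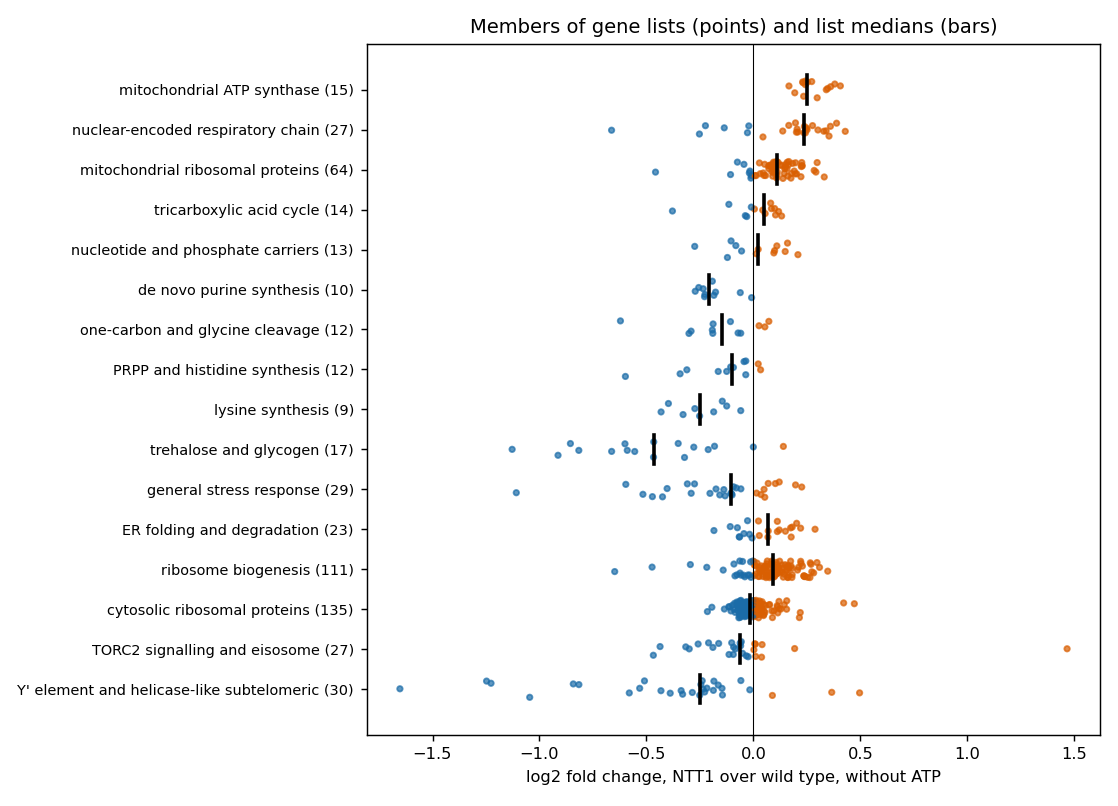
Log2 fold changes of NTT1 over WT without ATP for the members of 16 gene lists, with 1 point per gene, a black bar at the list median and the number of genes tested in brackets. All ATP synthase genes lie above 0 and all de novo purine and lysine genes below 0, while SLM1 is the 1 point far to the right in the TORC2 list.

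The WT libraries differed widely among themselves in storage carbohydrate, stress and growth genes. Of 17 trehalose and glycogen genes, 16 were below 0, with a median of -0.47. At an unadjusted p under 0.05, 2 were lower, against 6.51% of all genes, and none was without overlap. TSL1, a subunit of trehalose synthase, had 435, 246 and 297 CPM in NTT1, against 907, 984 and 246 CPM in WT (-1.13, SE 0.40, unadjusted p 0.0159). WT replicates 1 and 2 were far above all NTT1 libraries and WT replicate 3 was as low as the lowest of them. GLC3, the glycogen branching enzyme, had 249, 174 and 183 CPM in NTT1, against 509.7, 494 and 138 CPM in WT (-0.91, SE 0.42, unadjusted p 0.0514), with WT replicate 3 lowest of all. NTH2, a trehalase, had 119.7, 111 and 98.4 CPM in NTT1, against 159, 147 and 114 CPM in WT (-0.35). Without WT replicate 3 the median was -0.76 and 15 of the 17 were called lower, against 5.13% of all genes, while the median was -0.29 without WT replicate 1 and -0.23 without WT replicate 2.

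The general stress list (29 genes) had 20 below 0 and 9 above, with a median of -0.11. Its centred level was -0.04, -0.22 and 0.14 in NTT1, against 0.21, 0.55 and -0.64 in WT, so the NTT1 libraries lay between the WT libraries. The median was -0.39 without WT replicate 3, with 9 genes called lower, against 5.13% of all genes, and 0.13 without WT replicate 2. XBP1, a stress repressor, had the smallest p, at 37.3, 20.3 and 25.7 CPM in NTT1 and 50.5, 98.2 and 30.9 CPM in WT (-1.11, unadjusted p 0.0189). Ribosome biogenesis (111 genes) showed the reverse order of WT libraries. Its centred level was 0.04, 0.15 and 0.01 in NTT1, against -0.24, -0.41 and 0.45 in WT, with 92 genes above 0 and a median of 0.09. Without WT replicate 3 the median was 0.38 and 70 genes were called higher, against 4.61% of all genes, whereas it was -0.01 without WT replicate 1 and -0.06 without WT replicate 2. SPB1, an rRNA methyltransferase, had 111, 114 and 108 CPM in NTT1, against 63.2, 65.0 and 134 CPM in WT. RNA polymerase I genes (15) had a median of 0.08, which changed sign without WT replicate 2. The direction of the stress and growth lists thus depended on which WT library was left out, and the state of these cultures was not tested.

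**Figure D4:**
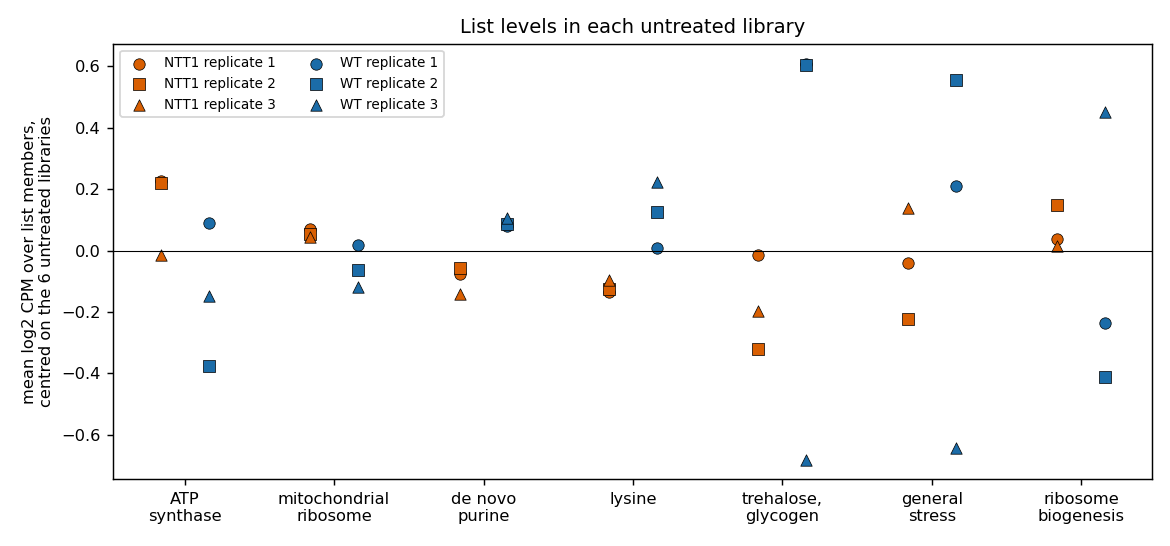
Mean log2 CPM over the members of 7 lists in each untreated library, centred on the 6 libraries, with NTT1 left of WT and 1 symbol shape per replicate number. For the storage, stress and growth lists the NTT1 libraries lie between the WT libraries, and WT replicate 3 lies opposite to WT replicates 1 and 2 for trehalose and glycogen (-0.68), general stress (-0.64) and ribosome biogenesis (0.45).

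Protein folding in the endoplasmic reticulum had 14 of 23 genes above 0 and a median of 0.07, with 6 higher and 0 lower at an unadjusted p under 0.05, against 3.18% of all genes higher, and 7 higher without overlap, against 4.27%. KAR2, the Hsp70 of the lumen, had 1061, 967 and 967 CPM in NTT1, against 841, 829 and 783 CPM in WT (0.29, SE 0.07, adjusted p 0.274). Its partners JEM1, LHS1, SIL1 and SCJ1 had 0.22, 0.20, 0.18 and 0.15. JEM1 had 62.5, 63.8 and 65.5 CPM in NTT1, against 51.5, 52.8 and 60.3 CPM in WT. HAC1, the factor of the unfolded protein response, had 0.18, and the disulfide isomerase PDI1 had -0.18 with overlapping ranges. The median was 0.03 with the length offset, 0.04 without NTT1 replicate 1 and 0.11 without WT replicate 1.

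Of 20 hexose transporter and glucose sensor genes tested, 15 were below 0, with a median of -0.21. At an unadjusted p under 0.05, 5 were lower, against 6.51% of all genes. HXT17 had 6.39, 4.84 and 4.69 CPM in NTT1, against 9.79, 11.9 and 9.19 CPM in WT (-0.95, SE 0.21, adjusted p 0.24), and HXT13 had 3.50, 2.68 and 0.927 CPM in NTT1, against 5.01, 5.58 and 5.40 CPM in WT (-1.17). Neither pair of ranges overlapped. In the list, 3 genes were lower without overlap, against 5.13% of all genes. Whether HXT17 and HXT13 hold unique stretches was not checked, so they may not be independent measurements. HXT4, a main transporter, had 1105, 921 and 928 CPM in NTT1, against 2046, 1641 and 825 CPM in WT (-0.61), with WT replicate 3 below every other library. The list median was -0.48 without WT replicate 3. Glucose-repressed genes (22) had a median of -0.16, which changed sign without WT replicate 2. Their regulator CAT8 had 21.7, 15.7 and 18.0 CPM in NTT1, against 36.8, 39.2 and 19.3 CPM in WT (-0.78, SE 0.22, unadjusted p 0.00434), and FBP1, of gluconeogenesis, had 7.54, 8.49 and 7.69 CPM in NTT1, against 9.90, 10.1 and 10.8 CPM in WT (-0.38).

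The remaining lists had smaller medians or members that overlapped. The galactose pathway had a median of -0.25 at low levels (7 genes, 3 lower at an unadjusted p under 0.05, against 6.51% of all genes). Zinc genes had 0.20 (14 genes, 12 above 0), and 0.03 without NTT1 replicate 1, led by transporters that varied several-fold among replicates, such as ZRT1 at 3439.7, 2478 and 1152 CPM in NTT1 and 1972, 443 and 2057 CPM in WT. The list of nutrient signalling had -0.03 (30 genes), with SNF1 at -0.34 and IRA2 at -0.30. Phosphate genes had -0.06 (27), with PHO91 at -0.37 and GIT1 at 0.48, and the high-affinity phosphate transporter PHO84 had -0.11 (unadjusted p 0.478). Medians were -0.05 for iron (27), -0.04 for glycolysis (22), -0.06 for chaperones (23), 0.04 for the proteasome (33), -0.03 for plasma membrane transport (23) and the vacuolar ATPase (15), -0.02 for cytosolic ribosomal proteins (135), -0.11 for methionine and sulfate (20), -0.07 for autophagy (32) and -0.08 for stationary phase and meiosis (15). None of their members was called. Of these, the medians of iron, chaperones, the proteasome, phosphate, plasma membrane transport, ribosomal proteins, methionine, autophagy and stationary phase changed sign under at least 1 alternative.

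Strain markers were read to see whether the strains carried the same auxotrophies and mating type. LEU2 and MET17 had 0 counts in all 12 libraries, where 3 counts correspond to 0.145 to 0.202 CPM. URA3 had 783, 766 and 757 CPM in NTT1, against 764, 683 and 797 CPM in WT, and HIS3 had 135, 129 and 143 CPM in NTT1, against 149, 192 and 175 CPM in WT. STE2, the pheromone receptor of a cells, had 642, 613 and 579.7 CPM in NTT1, against 562, 543 and 699.6 CPM in WT, whereas MF(ALPHA)1, of alpha cells, had 0.601 to 1.25 CPM in the 6 libraries. LEU2, MET17 and MF(ALPHA)1 were thus at or near 0 in both strains. Of the 17 markers tested none was called, and the median was 0.005, but 4 were lower at an unadjusted p under 0.05, against 6.51% of all genes, and 3 of them did not overlap, against 5.13%. These 3 were HIS3 (-0.34, unadjusted p 0.00764), LYS2 (-0.43, unadjusted p 0.00236) and CAN1, the arginine permease (-0.18, unadjusted p 0.0183).

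The strain comparison with ATP shares no library with that without. It called 4 genes (0.065%) and had 278 (4.52%) at an unadjusted p under 0.05, 129 higher (2.1%) and 149 lower (2.42%). Ranges did not overlap in 996 genes (16.2%), 8.2% with NTT1 above and 7.97% with NTT1 below, and 50.7% of genes had a difference above 0. SLM1 had 364, 323 and 359 CPM in treated NTT1, against 85.5, 93.3 and 90.3 CPM in treated WT, a difference of 1.96. YBL113C had 9.09, 9.28 and 7.03 CPM in treated NTT1, against 20.2, 16.9 and 19.9 CPM in treated WT (-1.16). YOL164W-A had 2.01, 2.11 and 1.88 CPM in treated NTT1, against 1.197, 1.01 and 1.15 CPM in treated WT (0.85, unadjusted p 0.000455). Groups were apart for each of the 3 in both conditions, and the first 2 were called in both. snR19 had -1.01 without ATP and -1.03 with ATP.

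Most other differences without ATP were not seen with it. Across all 6157 genes, 53.5% had the same sign in both comparisons (Pearson's r 0.157, Spearman's rho 0.1004), and among the 597 genes at an unadjusted p under 0.05 without ATP it was 57.0%. Of the 24 named genes, 14 had the same sign, 6 of the 12 higher and 8 of the 12 lower. Medians without and with ATP were 0.25 and -0.04 for the ATP synthase, 0.24 and -0.02 for the respiratory chain, 0.11 and -0.02 for the mitochondrial ribosome, -0.21 and 0.01 for de novo purine synthesis and -0.47 and -0.06 for trehalose and glycogen, while lysine kept 9 of 9 below 0 with medians of -0.25 and -0.06. The test of the difference between the 2 comparisons called 0 of 6157 genes (0%) with edgeR, with 365 (5.93%) at an unadjusted p under 0.05. DESeq2 called 6, and edgeR without untreated WT replicate 3 called 106. The full edgeR fit thus did not show for any gene that the strains differed more in one condition. Among list members at an unadjusted p under 0.05 in that test were 13 of 64 mitochondrial ribosome genes, 6 of 12 one-carbon genes, 5 of 15 ATP synthase genes and 3 of 10 purine genes. ADE17 had -0.23 without and 0.25 with ATP (difference -0.47, unadjusted p 0.00191), and THR1 -0.62 without and 0.15 with ATP (difference -0.77, unadjusted p 0.000811).

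**Figure D5:**
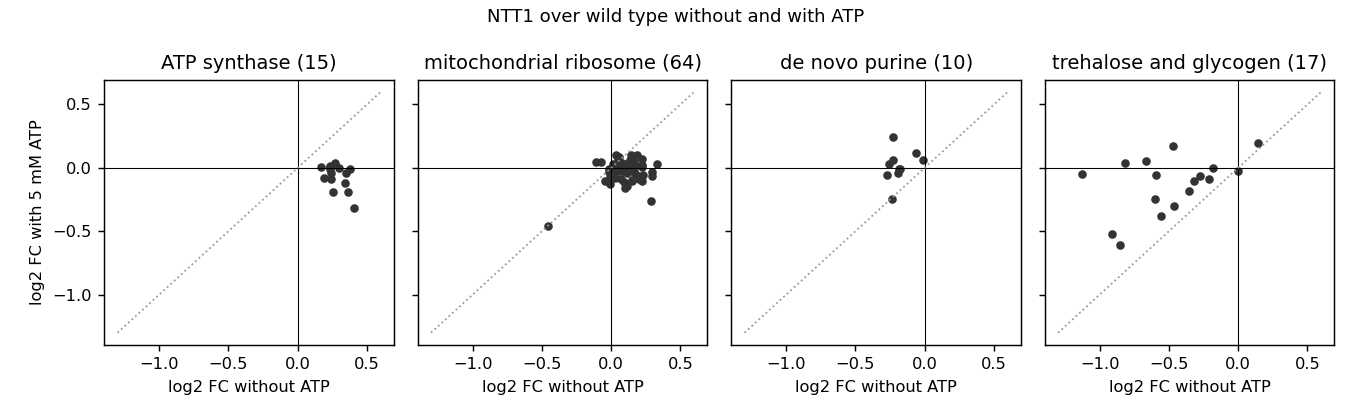
Log2 fold change (FC) of NTT1 over WT without ATP (across) and with 5 mM ATP (up) for each gene of 4 lists, with the numbers of genes in brackets and a dotted line where both are equal. The ATP synthase genes all lie right of 0 and the purine genes all left of 0 without ATP, while with ATP both lie around 0, with medians of -0.04 and 0.01.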

How the data were processed

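Total RNA was taken with a Zymo Research kit and sequenced from Illumina TruSeq libraries, per the labels' protocols. The submitters' processing notes name the build R64 and the tools HISAT2 2.0.5, featureCounts 1.5.0 and DESeq2 1.20.0 without their roles. Strand setting, annotation release and the treatment of reads with several matches are not given in the sources used here. The authors deposited raw counts per gene, which are whole numbers with unequal totals (14845855 to 20714804 over 12 libraries). Of 7127 features, 6023 were matched by locus tag to RefSeq's R64 annotation, and the 1104 others hold 0.282% of counts. Library columns were assigned by the library names in the labels.

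Genes were filtered with filterByExpr, which left 6157 with 99.992% of the counts, and tested with edgeR 4.0.16 (R 4.3.3) by the quasi-likelihood F-test with TMM factors, a mean per group and all 12 libraries in 1 fit. Standard errors come from the fold change and F and are approximate. Fitted fold changes use a prior count of 0.125, and log2 CPM a prior count of 2. The smallest exact permutation p for 3 against 3 libraries is 0.1, so no such test was used. On simulated counts for 6139 genes with 200 shifted by 1 on the log2 scale, the test called 88.5% of those and 3.28% of its calls were unchanged genes. Each simulated library was drawn independently around 1 mean per gene. The simulation therefore lacks shifts shared by many genes of a library, as between the untreated WT libraries, and its rates cannot be carried over to this comparison. The labels call the replicates separate biological samples.

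Alternatives were DESeq2 1.42.0, upper-quartile factors, other filters, a replicate block, untreated libraries alone, each library left out, limma 3.58.1 with library weights and, added after seeing the data, a gene-length offset. Named genes are those called, and 12 higher and 12 lower of smallest p among genes averaging 20 counts or more with non-overlapping CPM ranges. The 2 genes with the smallest p in each list with tested members, 35 of 36 lists, are named as well. Members of the lists on purine synthesis, carriers, TORC2, Y' elements and strain markers could be named freely, and other genes were chosen for their role or after their values were seen. The comparison and the lists were chosen with earlier results of these data known.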

Additional observations from a re-analysis of the deposited data

How the results depend on the processing

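The count of 3 genes called without ATP stayed within 2 to 4 under upper-quartile factors, both other filters, an adjusted p under 0.1, the gene-length offset and the replicate block, which called 2. It was 0 in the untreated libraries alone, 41 with DESeq2 (11 higher, 30 lower) and 731 with limma and library weights (363 higher, 368 lower). The weights were estimated without reaching convergence. They were 4.32, 0.244 and 0.144 for untreated WT replicates 1 to 3, and 1.16, 0.927 and 0.689 for untreated NTT1. The WT side of the limma setting, in its calls and its list medians, thus rests mostly on WT replicate 1. With 1 untreated library left out it ran from 2 to 602, the 602 without WT replicate 3. With ATP, 4 genes were called, 12 with DESeq2 and 1 to 2 with 1 treated library left out. The test of the difference between conditions called 0 genes, 6 with DESeq2 and 0 to 106 with 1 library left out, the 106 again without untreated WT replicate 3. The cause of these shifts was not tested. Of 91 named genes, 2 changed sign in 1 setting each: ADH4 ran from -0.017 without NTT1 replicate 1 to 1.08 without WT replicate 1, and GUA1 from -0.37 without WT replicate 2 to 0.043 without WT replicate 3. Over these 91 named genes and all alternatives, 1150 values kept sign and side of the threshold and 5 lost it. Another 116 passed it newly, nearly all with limma and weights, with DESeq2 or without WT replicate 3. Of the list medians, 472 moved by less than the SD between replicates of that list's own level and 18 by more. That SD is wide where the WT libraries differ, so a median could change sign and still be among the 472. General stress is an example, at -0.11 in the main fit and 0.13 without WT replicate 2. Replicate numbers did not pair the libraries: deviations of same-numbered untreated WT and NTT1 libraries correlated at 0.311, -0.44 and -0.259. For other numbers, WT replicate 1 correlated at 0.161 and -0.398 with NTT1 replicates 2 and 3. WT replicate 2 correlated at -0.228 and 0.558 with NTT1 replicates 1 and 3. WT replicate 3 correlated at 0.00762 and 0.307 with NTT1 replicates 1 and 2. Whether the libraries pair under another numbering was not tested. Under the replicate block YOL164W-A had an adjusted p of 0.0529. Values under about 1 CPM rest on fewer than 20 counts and are imprecise.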
